A study of Mus musculus with 23 samples.

Results

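The cytosolic ribosomal protein genes encode the proteins of the small (Rps) and large (Rpl) subunits of the cytoplasmic ribosome. They were selected by symbol, as Rpl or Rps followed by a number and at most a short paralog ending, plus Rplp0, Rplp1, Rplp2 and Rpsa. The rule found 82 genes among 67228 entries of the count table, and 81 were among the 14364 genes that passed the count filter. The exception was Rpl32l, with at most 1 count in any library. The 81 genes comprised 30 of the small subunit, 43 of the large subunit, 3 of the P stalk and 5 paralogs with restricted or divergent roles. By RefSeq positions (GRCm38.p6) the 82 genes were spread over 19 chromosomes, with the most, 14 genes, on chromosome 7. Symbols outside the rule, such as Rps3a1, Rpl36al and Fau, were described separately.

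RNA was sequenced from the femur and tibia of female C57BL6/N mice at 11 weeks of age, after the marrow had been removed, with 1 mouse per library and 23 libraries. Type 1 diabetes (T1D) was induced with streptozotocin, a toxin of insulin-producing beta cells, at 100 mg/kg with repeat dosing, and lasted 3 weeks, while Control mice received saline. There were 5 WT Control mice and 6 mice in each of WT T1D, KO Control and KO T1D, where KO is a global deletion of Sarm1, an NADase that drives axon degeneration. The comparisons address whether T1D changes bone RNA and whether loss of Sarm1 alters that change. WT mice came from heterozygous breeding and from a supplier. The mouse numbers starting with A17 occurred only in WT, in 1 Control and 3 T1D mice. Numbers starting with A36 occurred only in KO and those starting with A39 only in WT. Only A3766 (KO Control) and A3767 (WT Control) shared a series. Genotype and number series therefore overlap almost fully, also among the A36 to A39 mice alone, and cannot be told apart.

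Library totals lay between 16938101 and 20135592 counts. Osteoblast and osteocyte markers were present in every group, with Col1a1 between 403 and 15803 TPM per library, and its lowest values were in WT T1D. Sarm1 RNA did not separate the genotypes: it held 6 to 32 counts in the WT libraries and 5 to 29 in the libraries labelled KO, so it does not check the labels, and genotype here means the label. A3905 and A3906, both WT T1D, stood apart from the other mice. Their hemoglobin genes took 21.4% and 21.0% of counts, against 8.01% to 16.02% in the other 21 libraries, and their osteoblast scores (mean log2 CPM of 14 markers) were 7.40 and 7.23, against 8.74 to 9.76 elsewhere. The median changes over the ribosomal protein genes in the comparisons that involve WT T1D are therefore also given without them. Subunits, single genes, marker lists, shares and correlations used all mice unless stated.

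Each ribosome needs 1 copy of nearly every ribosomal protein, so cells make these proteins in step with each other and with ribosomal RNA. Ribosomal protein mRNAs are among the most abundant in growing cells, and most begin with a 5′ terminal oligopyrimidine (TOP) tract, a C at the first base followed by a run of pyrimidines. Through this tract the mTORC1 pathway and LARP1 set how strongly the mRNAs are translated and stored. In the blood lineage the genes are known for the sensitivity of erythroid precursors to them: loss of 1 copy of RPS19, RPS26, RPL5 or RPL11 causes Diamond-Blackfan anemia in people, and loss of RPS14 contributes to the anemia of the 5q- syndrome.

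The start sites were examined for this tract, which the selection rule did not use. RefSeq (GRCm38.p6) gave 73 promoters for 61 of the 81 genes. The start windows that follow hold 15 bases before and 15 from the annotated start, with the tract in capitals where it begins at the start base. Rpl35, Rps18, Rps10, Rpl38 and Rplp2 carry it at different lengths, and Rpl24 and the paralogs Rpl39l and Rpl7l1 are shown because they have none at the annotated base.
Rpl35 (chr2:39005117-39005146, - strand): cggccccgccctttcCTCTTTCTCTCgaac
Rps18 (chr17:33955651-33955680, - strand): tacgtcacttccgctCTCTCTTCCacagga
Rps10 (chr17:27635230-27635259, - strand): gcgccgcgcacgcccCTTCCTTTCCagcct
Rpl38 (chr11:114668565-114668594, + strand): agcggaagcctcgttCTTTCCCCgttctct
Rplp2 (chr7:141447636-141447665, + strand): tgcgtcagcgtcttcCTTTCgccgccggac
Rpl24 (chr16:55966260-55966289, + strand): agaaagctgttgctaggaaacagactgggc
Rpl39l (chr16:10170213-10170242, + strand): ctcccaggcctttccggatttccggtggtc
Rpl7l1 (chr17:46782642-46782671, - strand): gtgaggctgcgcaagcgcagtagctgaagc

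A C at the annotated start followed by at least 4 pyrimidines was found in 13 of the 73 promoters (17.8%), against 2.28% of 14494 promoters of all tested genes and 2.51% of all 32851 promoters. A C followed by at least 5 pyrimidines anywhere from 5 bases before to 12 bases after the start was found in 39.7%, against 11.2% of promoters of tested genes. The ETS core CCGGAAG, on either strand of the 300-base promoter, was found in 35.6%, against 15.6%. TATAAA on either strand was found in 9.59%, against 7.81%. These are matches of letters at annotated starts and show no use of a site. The 13 genes with the tract at the start base changed with T1D in WT by a median of 0.25 (log2), and the other 48 genes with a promoter had 0.27.

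The 81 genes were highly and unevenly represented. The level per transcript length and library (TPM) had a median of 860.1 over the genes, against 9.91 over all genes tested. The highest mean levels over the 23 mice were 4618 TPM for Rps26, a small subunit protein near the mRNA exit, and 2684 TPM for Rpl41, the smallest ribosomal protein. Of the 76 genes that are not paralogs, 71 lay above 300 TPM. The lowest of all were Rpl39l at 5.82 TPM, Rpl3l at 10.3 TPM and Rps6 at 19.1 TPM. Rps6, the well-known target of S6 kinase, had a mean of 336 counts, while the next lowest gene that is not a paralog had 2018. Ratios of counts to TPM ranged from 3.67 for Rps27 to 68.1 for Rps15a around a median of 8.86, so the transcript lengths used by the authors weigh on any comparison of levels between these genes. Ribosomal protein genes also have many near-identical processed copies: RefSeq GRCm38.p6 names 309 Rpl and Rps pseudogenes with a -ps symbol, of which 8 had an entry in the count table and held 1.82% to 2.10% as many counts as the 82 genes. How reads shared with such copies were assigned was not tested, so single levels are uncertain.

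With T1D in WT mice, ribosomal protein RNA was higher almost throughout. Of the 81 genes, 79 had a higher mean in WT T1D than in WT Control, and the median log2 fold change was 0.27 (1.21-fold), with the middle 50% of genes between 0.23 and 0.33. Over all 14364 genes the median was -0.01 and the middle 50% lay between -0.18 and 0.14. Values were counts scaled to library size by the TMM method (CPM), tested with edgeR's quasi-likelihood test with Benjamini-Hochberg adjustment over all genes. At an adjusted p under 0.05, 5 of the 81 genes (6.17%) rose and none fell, against 2.33% of all genes called in either direction and 1.5% called higher. At an unadjusted p under 0.05, 65 of the 81 (80.2%) were higher and 0 lower, against 11% of all genes higher. In bulk bone, more cells of a type and more RNA per cell cannot be told apart.

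The genes that rose were Rpl24, Rpl12, Rpl35, Rpl13a and Rps3. Rpl24, a large subunit protein at the bridge between the subunits, measured 281, 243, 260.2, 282 and 274 CPM in the WT Control mice, and 315 at the lowest, 349 at the median and 458 at the highest in the WT T1D mice. All 6 WT T1D mice lay above every WT Control mouse, and the log2 fold change was 0.49 ± 0.11 (SE; edgeR adjusted p = 0.0367). Rpl12, which sits at the base of the P stalk, measured 414, 411, 414, 364 and 416 CPM in WT Control, and 460.2, 517 and 651 CPM at the lowest, median and highest in WT T1D. Its groups did not overlap either, at 0.42 ± 0.09 (edgeR adjusted p = 0.0367).

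Rpl35, a large subunit protein at the exit of the peptide tunnel, measured 467, 420.3, 472, 494 and 492 CPM in WT Control. In WT T1D its lowest, median and highest values were 501, 622 and 805 CPM, again with no overlap, and the log2 fold change was 0.47 ± 0.12 (edgeR adjusted p = 0.0451). Rpl13a, known also for silencing of inflammatory mRNAs when released from the ribosome, had 560.5 to 639 CPM in WT Control and 655 to 863 CPM in WT T1D (0.33 ± 0.09, edgeR adjusted p = 0.0494). Rps3, a small subunit protein at the mRNA entry, had 650.3, 612, 563, 657 and 643 CPM in WT Control and 650.2, 791 and 966 CPM at the lowest, median and highest in WT T1D (0.37 ± 0.10, edgeR adjusted p = 0.0499). For Rps3 the lowest WT T1D mouse lay inside the WT Control range and the other 5 lay above it. Groups without overlap, all higher in T1D, were found in 6 of 81 genes (7.41%), against 1.32% of all genes. Besides the 4 named, these were Rpl4 and Rps4x, picked out after their values were seen, at 0.24 ± 0.08 (edgeR adjusted p = 0.0747) and 0.28 ± 0.08 (edgeR adjusted p = 0.0547).

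The medians of both subunits were close. All 30 small subunit genes were higher in WT T1D, with a median log2 fold change of 0.28, and all 43 large subunit genes were higher, with a median of 0.27. Most single genes missed the threshold, and their values are given without a call. Rps18, of the small subunit head, was at 0.43 ± 0.13 (edgeR adjusted p = 0.0615), and Rps10, next to it on the beak side, at 0.38 ± 0.11 (edgeR adjusted p = 0.0558). Rpl32 was at 0.38 ± 0.11 (edgeR adjusted p = 0.0624). At the lower end, Rps9 was at 0.11 ± 0.09 (edgeR adjusted p = 0.511), with WT T1D values from 357 to 539 CPM spanning the WT Control values from 376 to 452 CPM.

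**Figure D1:**
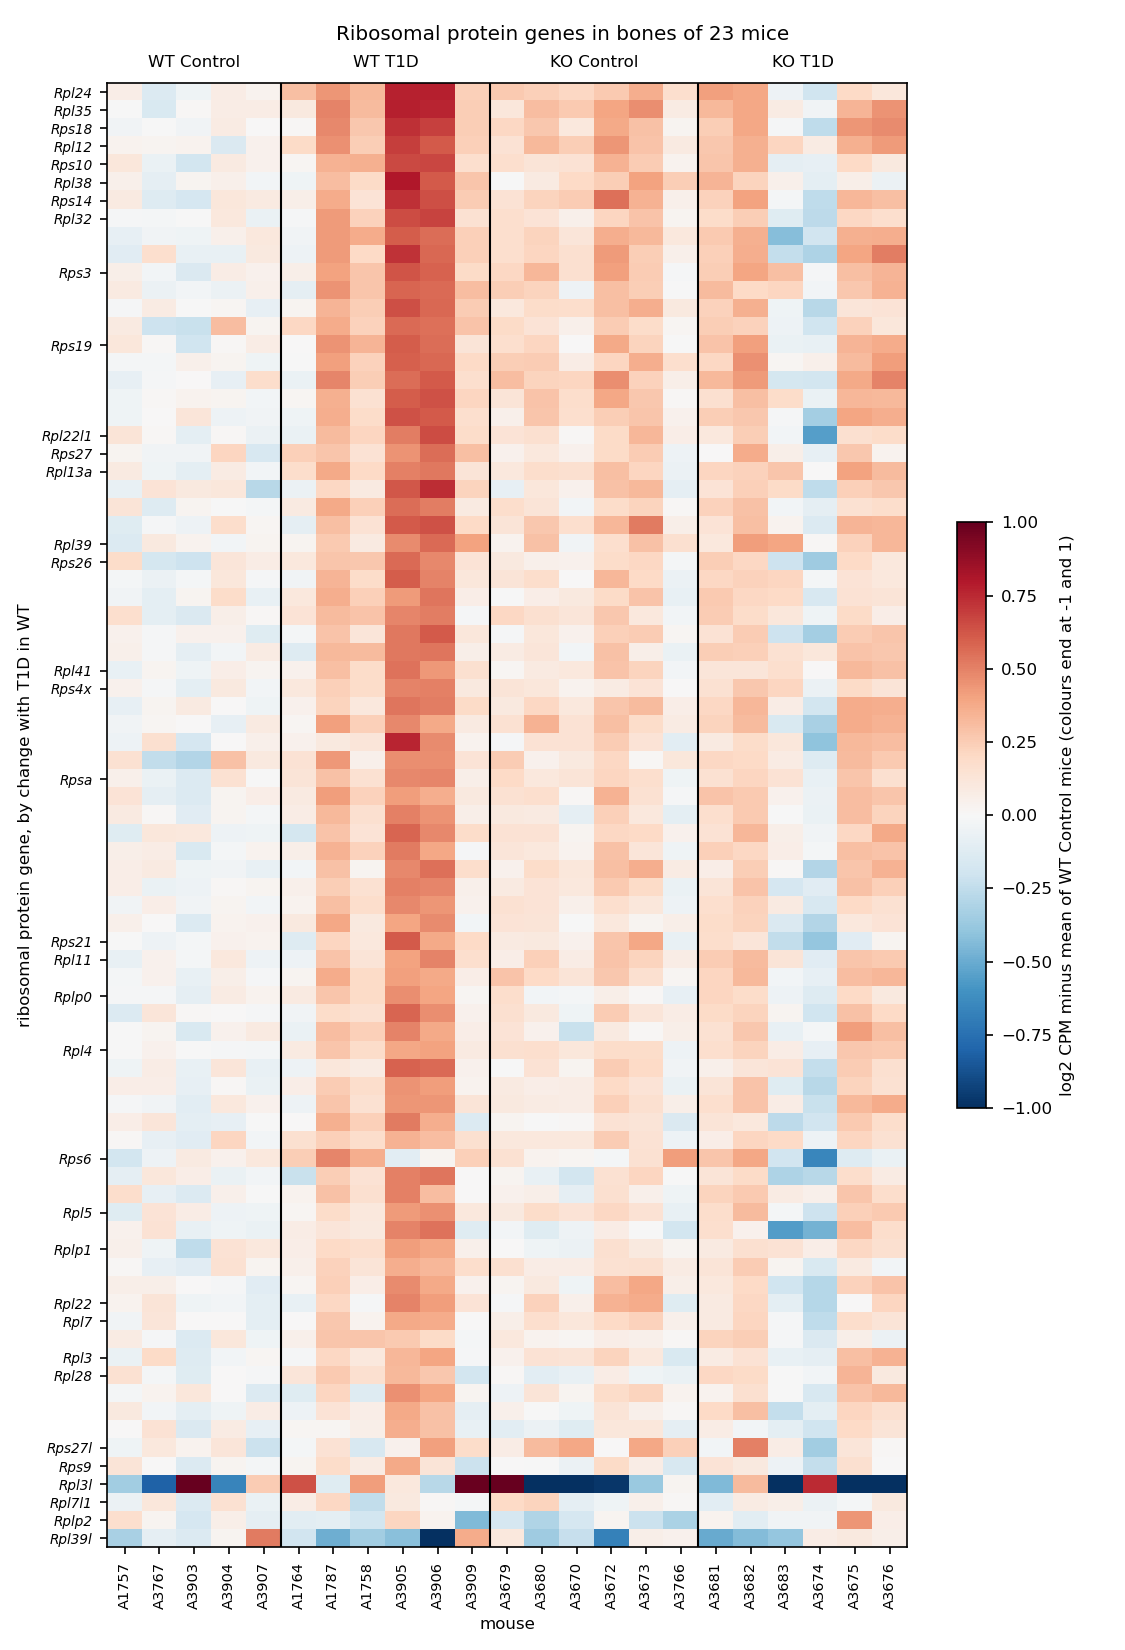
Heat map of log2 CPM of each of the 81 genes (rows, ordered by change with T1D in WT, with some genes labelled) in each of the 23 mice (columns, by group), as the difference from the mean of the 5 WT Control mice. A3905 and A3906 are red over nearly all rows, the KO groups are mostly pale red, and A3674 is mostly pale blue; Rpl3l, Rpl39l and Rplp2 break the row pattern.

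The genes linked to Diamond-Blackfan anemia and the 5q- syndrome followed the others without passing the threshold. Rps19, needed to mature the small subunit RNA, measured 195, 182, 157, 182 and 190 CPM in WT Control and 181, 238 and 275 CPM at the lowest, median and highest in WT T1D (0.36 ± 0.11, edgeR adjusted p = 0.0707). Rps14 had 416 to 504 CPM in WT Control and 485 to 775 CPM in WT T1D (0.38 ± 0.13, edgeR adjusted p = 0.0898). Rps26 was at 0.31 ± 0.11 (edgeR adjusted p = 0.113). Rpl5 and Rpl11, which with 5S RNA bind the p53 regulator Mdm2 when ribosome assembly fails, were at 0.22 ± 0.10 (edgeR adjusted p = 0.172) and 0.25 ± 0.09 (edgeR adjusted p = 0.108). Each of these groups overlapped. Rpsa, also described as a laminin receptor, was at 0.27 ± 0.09 (edgeR adjusted p = 0.0844). Rps6 was at 0.23 ± 0.14 (edgeR adjusted p = 0.358), on 15.2 to 18.6 CPM in WT Control and 16.1 to 24.5 CPM in WT T1D.

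The P stalk, which recruits the elongation factors, was not uniform. Rplp0, its anchor, had 1403, 1408, 1330, 1496 and 1451 CPM in WT Control and 1438 to 1960 CPM in WT T1D (0.25 ± 0.09, edgeR adjusted p = 0.097). Rplp1 was at 0.22 ± 0.08 (edgeR adjusted p = 0.112). Rplp2, the partner that pairs with Rplp1, was 1 of the 2 genes with a lower mean: it had 231, 211, 184, 215 and 193 CPM in WT Control and 152, 192 and 239 CPM at the lowest, median and highest in WT T1D. The groups overlapped, and the log2 fold change was -0.09 ± 0.10 (edgeR adjusted p = 0.661). On the log2(TPM + 1) scale, where the median of all genes was -0.24, Rplp2 was at -0.37 and was the single gene of the 81 (1.23%) that limma called, against 35.9% of all genes. Among the A36 to A39 mice alone it was at 0.01.

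The size of the rise differed between the 6 WT T1D mice. The median over the 81 genes of the difference from the WT Control mean (log2 CPM) was 0.50 in A3905, 0.48 in A3906, 0.29 in A1787, 0.18 in A1758, 0.13 in A3909 and 0.03 in A1764. The 5 WT Control mice lay between -0.05 and 0.03, so the level of A1764 fell inside their range and the other 5 lay above it. Between 51 and 79 of the 81 genes were above the WT Control mean in each WT T1D mouse. As a share of all counts, the 82 genes took 3.50% ± 0.09 (SD, n = 5) in WT Control, 4.04% ± 0.45 (SD, n = 6) in WT T1D, 3.85% ± 0.20 (SD, n = 6) in KO Control and 3.78% ± 0.44 (SD, n = 6) in KO T1D.

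Without A3905 and A3906 the median change with T1D in WT was 0.15 (log2), 78 of the 81 genes were still higher, and no gene was called by edgeR among the 81 or among all genes; 22 of the 81 (27.2%) were higher at an unadjusted p under 0.05, against 5.35% of all genes. Leaving out any single mouse of the 23 moved the number of called genes by over 1.5 times, to between 0 and 35, while the median stayed between 0.23 and 0.31. None was called without A3767, A3903, A3904 or A3907 of WT Control, A1787, A3905 or A3906 of WT T1D, or A3675 of KO T1D, and the highest counts, 35 and 33, came without A1764 and A3909. With only mice numbered A36 to A39, 48 of the 81 (59.3%) rose, against 15.4% of all genes called, and the median was 0.39. The only WT T1D mice in that set were A3905, A3906 and A3909, so A3905 and A3906 weigh more there than in the main fit. The A17 series holds 1 WT Control mouse and gives no value of its own.

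Markers of other cells moved with this result. The erythroid score (mean log2 CPM of 16 markers) was 9.87 ± 0.19 (SD, n = 5) in WT Control, ranging from 9.63 to 10.1, and 10.4 ± 0.30 (SD, n = 6) in WT T1D, ranging from 10.1 to 10.9. All 16 erythroid genes were higher in WT T1D and 7 passed the test, such as Slc4a1, the red cell anion exchanger, at 0.64 ± 0.14 (edgeR adjusted p = 0.0367). The osteoblast score ranged from 8.94 to 9.76 in WT Control and from 7.23 to 9.32 in WT T1D. Of its 14 genes 2 were higher, with a median of -0.74, and 6 were lower at an unadjusted p under 0.05. Called by edgeR, both lower, were Ibsp at -0.78 ± 0.15 (edgeR adjusted p = 0.0236) and Runx2 at -0.66 ± 0.16 (edgeR adjusted p = 0.0451). With the erythroid score as a covariate the median over the 81 genes was 0.09, with 0 called among the 81 or among all genes. The score nearly separated the WT Control from the WT T1D mice, so this fit cannot tell it apart from T1D. Of the 12 neutrophil genes, 11 were higher and 0 were called by edgeR, with 2 at an unadjusted p under 0.05. Of the 10 T and NK cell genes 1 was higher, with a median of -0.19. Cd4 alone was called by edgeR, lower at -0.67 ± 0.17 (edgeR adjusted p = 0.0458). Of 11 B cell genes and 12 skeletal muscle genes 0 were called by edgeR, with 0 at an unadjusted p under 0.05. The B cell score (mean log2 CPM) was 3.00 in A3905 and 3.30 in A3906, against 4.82 to 6.08 in the other mice. The neutrophil scores of A3905 and A3906, 11.3 and 11.1, were the highest, against at most 10.9 elsewhere. The part of these cells in the result was not tested.

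**Figure D2:**
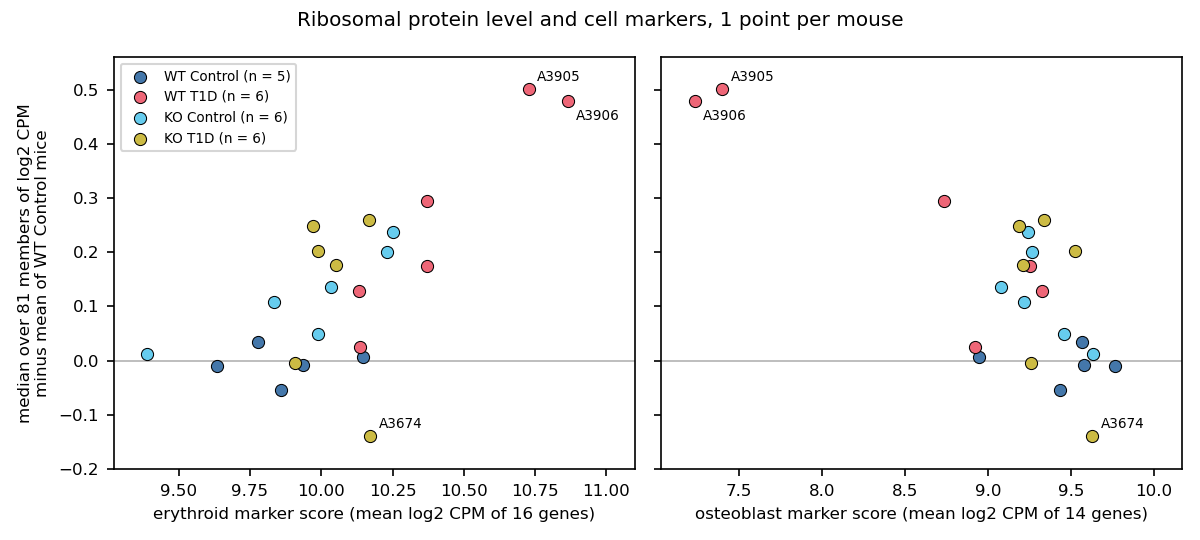
Median over the 81 genes of log2 CPM minus the WT Control mean (vertical) against the erythroid score (left) and the osteoblast score (right), both mean log2 CPM of the markers, with 1 point per mouse coloured by group. A3905 and A3906 (0.50 and 0.48) hold the highest erythroid and lowest osteoblast scores, and A3674 (-0.14) lies lowest without an extreme erythroid score.

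The unit also mattered. In TPM, where the total is fixed per library and hemoglobin took 30.6% ± 3.5 (SD, n = 5) of the total in WT Control and 40.7% ± 5.3 (SD, n = 6) in WT T1D, the median over the 81 genes was -0.02 on the log2(TPM + 1) scale, while the median of all genes was -0.24. The difference between both medians was 0.22, and 0.27 on log2(TPM + 0.1), against 0.28 in the main comparison. On either TPM scale 34 of the 81 genes were higher in WT T1D and 47 lower. With hemoglobin genes left out and TPM rescaled, an alternative added after the data were seen, the median was 0.21 and all genes were at -0.06. The share of the TPM total held by the 82 genes was 7.57% ± 0.27 (SD, n = 5) of TPM in WT Control and 7.54% ± 0.39 (SD, n = 6) in WT T1D.

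**Figure D3:**
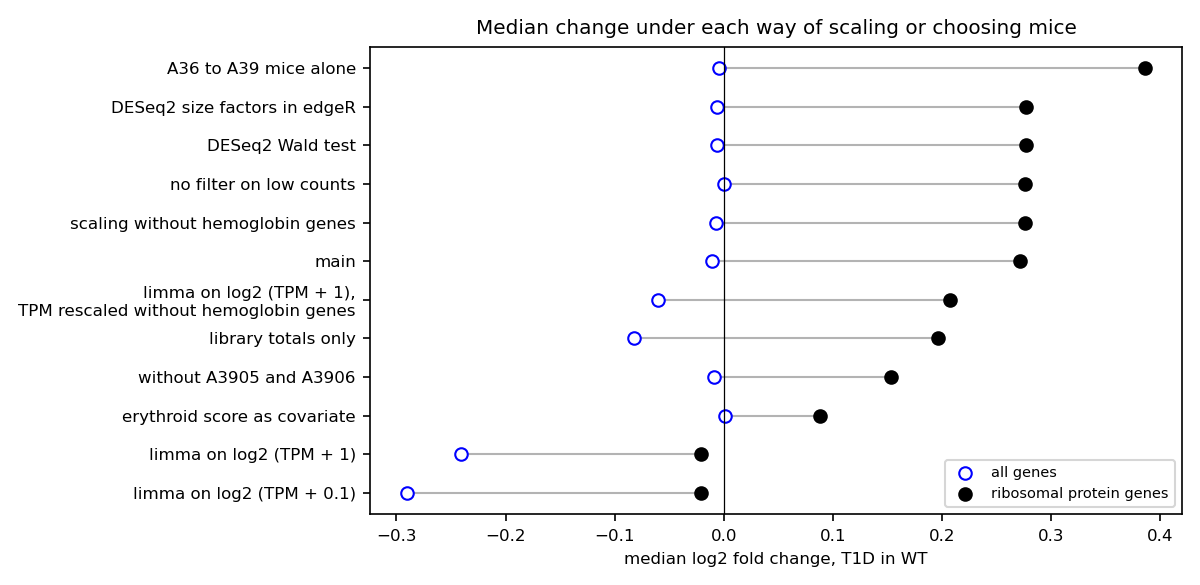
Median log2 fold change with T1D in WT over the ribosomal protein genes (filled) and over all genes (open) under the main fit and 11 alternatives. The filled point lies to the right of the open one in each row, from a gap of 0.09 with the erythroid covariate to 0.39 in the A36 to A39 mice alone, and falls below 0 only in the rows on TPM that keep hemoglobin.

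With T1D in KO mice the genes lay on both sides of no change. Of the 81 genes, 46 were higher and 35 lower, the median log2 fold change was 0.02, and the middle 50% lay between -0.05 and 0.04. No gene was called by edgeR, among the 81 or among all genes (0%), and 2 of the 81 (2.47%) were higher at an unadjusted p under 0.05, against 1.49% of all genes. These were Rplp2 at 0.26 ± 0.10 and Rpl28 at 0.17 ± 0.08 (both edgeR adjusted p = 1.00). Groups that did not overlap and were higher in T1D made up 0 of the 81, against 0.0905% of all genes. Rpl24, with the largest change in WT, had 300.2, 318 and 345 CPM at the lowest, median and highest in KO Control and 233, 299 and 356 CPM in KO T1D. Rps21 of the small subunit had the most negative value other than Rpl3l, at -0.20 ± 0.11, and did not pass (unadjusted p = 0.0722 by edgeR's quasi-likelihood test).

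**Figure D4:**
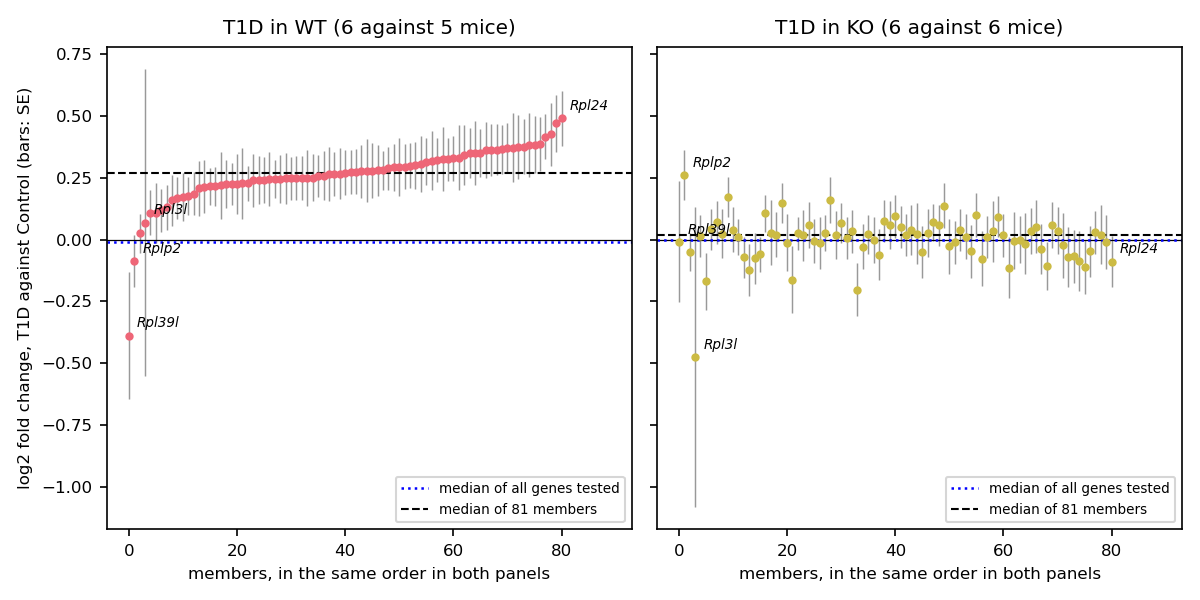
Log2 fold change with T1D of each of the 81 genes in WT (left) and KO (right), in the same order, with bars for the SE, a dashed line for the median of the genes (0.27 and 0.02) and a dotted line for the median of all genes. In WT all but Rpl39l and Rplp2 lie above 0, and in KO the points lie on both sides of it.

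A3674 of KO T1D lay apart from its group. Its median over the 81 genes was -0.14, with 10 of 81 above the WT Control mean, and its share of counts was 3.00%, whereas the other 5 KO T1D mice lay between 0.00 and 0.26 and between 3.50% and 4.10%. Its erythroid score of 10.173 was nearly the same as the 10.167 of A3675, the KO T1D mouse with the highest median (0.26). A3674 also had the highest osteoblast score of KO T1D, 9.63, and the lowest TMM factor of that group, 0.958. Leaving out each mouse in turn kept the median change with T1D in KO between -0.02 and 0.06, with 0 genes called by edgeR in each fit.

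The medians of KO against WT had opposite signs under Control and T1D. In Control, 75 of the 81 genes were higher in KO, with a median of 0.12. None was called by edgeR, against 0.0278% of all genes, and 7 (8.64%) were higher at an unadjusted p under 0.05, against 2.3% of all genes. Without 1 mouse these 7 became 1 (A3767), 2 (A3672 or A3673), 3 (A3680 or A3903), 4 (A1757), 11 (A1764, A3905 or A3906) or 13 (A3766 or A3674). In these fits 1.68% to 3.25% of all genes were higher at that threshold. Groups did not overlap, with KO higher, for 5 genes (6.17%), against 0.32% of all genes: Rpl12, Rpl24, Rpl35, Rps15a and Rps25, picked out after their values were seen. Rpl35 had the highest value, 0.28 ± 0.12 (edgeR adjusted p = 0.999), with 495 to 648 CPM in KO Control against 420.3 to 494 CPM in WT Control.

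In T1D, 79 of the 81 genes were lower in KO, with a median of -0.14. None was called by edgeR, against 0.0905% of all genes, and 13 (16%) were lower at an unadjusted p under 0.05, against 8.65% of all genes. No gene had groups that did not overlap and were lower in KO, against 0.411% of all genes. Rpl24 was at -0.33 ± 0.10 (edgeR adjusted p = 0.153), with 233 to 356 CPM in KO T1D against 315 to 458 CPM in WT T1D. Without A3905 and A3906 the median was -0.01, and 31 of the 81 genes were higher. The direction turned on log2(TPM + 1), where 59 of the 81 were higher in KO (median 0.07, against 0.17 over all genes), and with the erythroid score as a covariate, where 48 were higher (median 0.0087). The 13 lower genes became 7 without A3905, 8 without A3906, A3674 or A3683, 20 without A3675, 24 without A3909 and 32 without A1764. In these fits 5.4% to 9.96% of all genes were lower at that threshold.

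The difference between the T1D changes, KO minus WT, was tested as an interaction. It was negative for 78 of the 81 genes, with a median of -0.26 against 0.01 over all genes. No gene passed by edgeR, among the 81 or all genes (0%), and the lowest adjusted p was 0.479. At an unadjusted p under 0.05, 31 of the 81 (38.3%) were lower, against 5.4% of all genes, and 1 (1.23%) was higher, against 4.81%. Rpl24 was at -0.58 ± 0.15 (edgeR adjusted p = 0.479), and the gene on the positive side was Rplp2, at 0.35 ± 0.14 (edgeR adjusted p = 0.479). Without A3905 and A3906 the median was -0.16, with 9 of the 81 (11.1%) lower at an unadjusted p under 0.05, against 2.19% of all genes. With the erythroid covariate the median was -0.09 and 2 genes were lower at that threshold, against 1.68% of all genes. On log2(TPM + 1) the median was -0.02, with 31 of the 81 genes positive and 1 lower at that threshold, against 0.494% of all genes. The 31 lower genes became 21 without A3905 (4.41% of all genes), 22 without A3674 (5.3%) and 23 without A3906 (3.94%). They became 47 without A3909 (6.7% of all genes) and 52 without A1764 (6.98%). These comparisons share groups of mice, so their values are not independent of each other.

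Across the 23 mice the genes varied together. The correlation of each gene's log2 CPM with the median of the other 80 had a median of 0.88, and 75 of 81 genes lay above 0.70. All genes of a mouse come from 1 library with 1 scaling factor, so the correlations are a description. The 6 others were Rpl39l (-0.60), Rpl3l (-0.24), Rps6 (0.22), Rpl7l1 (0.22), Rplp2 (0.33) and Rps27l (0.45), and 4 of them are paralogs.

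Rpl3l is the skeletal and heart muscle counterpart of Rpl3, which helps form the peptidyl transferase center. Its mean level was 10.3 TPM, against a group mean between 490 and 549 TPM for Rpl3. It measured 7.12, 5.05, 28.1, 5.64 and 11.1 CPM in WT Control. Its lowest, median and highest values were 7.52, 11.2 and 18.7 CPM in WT T1D, 2.95, 5.72 and 28.2 CPM in KO Control and 1.03, 4.92 and 15.7 CPM in KO T1D. The range inside each group exceeded the differences between groups, and no comparison was near the threshold (T1D in WT 0.07 ± 0.62, edgeR adjusted p = 0.964). Rpl3l followed a score of 12 skeletal muscle genes (mean log2 CPM), which ran from 3.81 to 9.14 over the mice: Pearson's r was 0.99 and Spearman's rho 0.98 (both permutation p = 1e-05, the smallest that 100000 permutations can give; adjusted over 15 relations, 0.00015), and r was 0.98 without the 2 mice farthest from the median score, 0.99 within the A36 to A39 mice and 0.99 within groups. Its lowest 2 mice, A3675 and A3676 of KO T1D, had the lowest muscle scores.

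Rpl39l, the counterpart of Rpl39 that is known from the testis, was listed at 2.63, 3.18, 3.05, 3.49 and 5.12 CPM in WT Control and at 1.21, 2.51 and 4.56 CPM at the lowest, median and highest in WT T1D, with at most 93 counts in a library. The groups overlapped and its log2 fold change of -0.39 ± 0.26 did not pass (edgeR adjusted p = 0.38). Its level was 5.82 TPM, against a group mean of 393 to 440 TPM for Rpl39. Of 8 germ cell genes of the testis, 2 passed the count filter and 0 were called by edgeR in any of the comparisons, with 1 higher with T1D in WT at an unadjusted p under 0.05. Rpl39l followed the osteoblast score (r = 0.69, permutation p = 0.00023, adjusted 0.00115; rho = 0.69, permutation p = 0.00034, adjusted 0.00255), with r = 0.62 without the 2 mice farthest from the median and 0.69 within the A36 to A39 mice. It was negatively related to the erythroid score (r = -0.63, permutation p = 0.00185, adjusted 0.00694; rho = -0.46, permutation p = 0.0296, adjusted 0.0887), with r = -0.43 without the 2 farthest mice, -0.61 within the A36 to A39 mice and -0.59 within groups. With that score as a covariate its change with T1D in WT turned to 0.14.

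**Figure D5:**
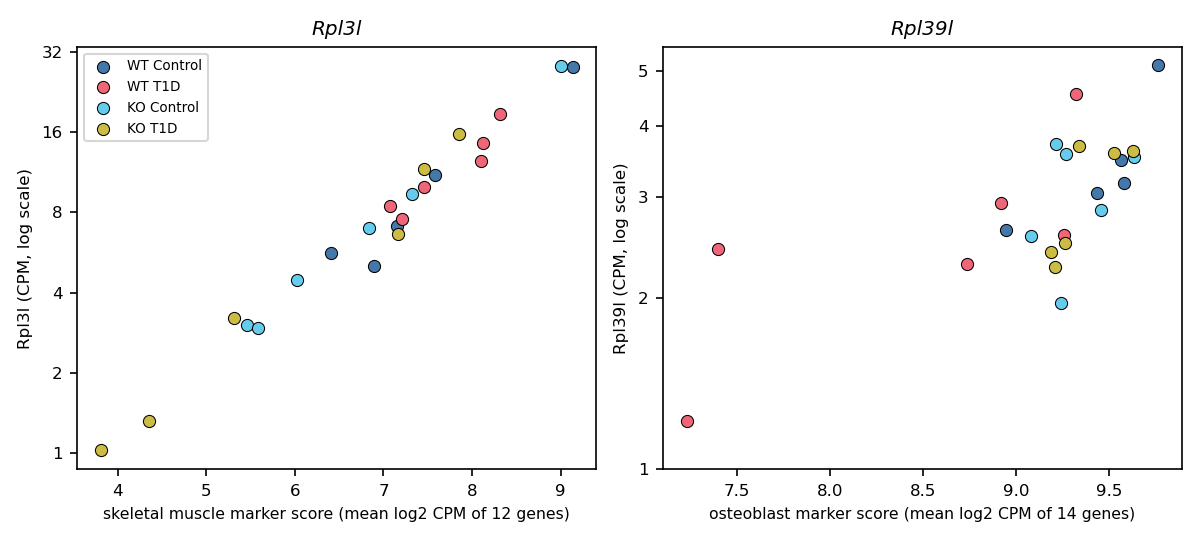
CPM (log scale) of Rpl3l against the skeletal muscle score (left) and of Rpl39l against the osteoblast score (right), both mean log2 CPM of the markers, 1 point per mouse coloured by group. Rpl3l runs from 1.03 to 28.2 CPM along the muscle score in all 4 groups mixed, and Rpl39l is lowest, 1.21 CPM, in a WT T1D mouse with the lowest osteoblast score.

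Rpl22l1, which can replace its counterpart Rpl22 in the large subunit, went with the other genes: it was at 0.33 ± 0.13 with T1D in WT (edgeR adjusted p = 0.135), with 11.2 to 13.2 CPM in WT Control and 11.5 to 19.3 CPM in WT T1D. Rpl22 itself was at 0.21 ± 0.11 (edgeR adjusted p = 0.277). The level was 40.9 TPM for Rpl22l1 and 80.6 TPM for Rpl22. Rpl22l1 was negatively related to the osteoblast score (r = -0.72, permutation p = 9e-05, adjusted 0.000675; rho = -0.57, permutation p = 0.00465, adjusted 0.0174), with r = -0.48 without the 2 mice farthest from the median. It was positively related to the erythroid score (r = 0.59, permutation p = 0.00482, adjusted 0.0145; rho = 0.61, permutation p = 0.00229, adjusted 0.0114), with r = 0.44 within groups, 0.59 within the A36 to A39 mice and 0.26 without the 2 farthest mice.

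Rps27l, a p53 target and counterpart of Rps27, had 61.3 TPM against 1992 TPM for Rps27. With T1D in WT it was at 0.11 ± 0.12 (edgeR adjusted p = 0.645), and Rps27 was at 0.33 ± 0.09 (edgeR adjusted p = 0.0524). None of the 12 p53 response genes was called by edgeR in any comparison. With T1D in WT, 9 of the 12 were higher, with 0 higher and 1 lower at an unadjusted p under 0.05. Rpl7l1, a homolog of the yeast ribosome assembly factor Rlp7, was at 0.02 ± 0.08 (edgeR adjusted p = 0.892), with 41.2 to 50.4 CPM in WT Control and 38.1 to 52.6 CPM in WT T1D, and its counterpart Rpl7 was at 0.19 ± 0.09 (edgeR adjusted p = 0.214).

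Other genes of the ribosome and of translation were compared as lists. All 5 ribosomal protein genes outside the symbol rule were higher with T1D in WT, with a median of 0.22. The 78 mitochondrial ribosomal protein genes had a median of 0.08, with 56 higher; 0 were called by edgeR, with 15 higher and 1 lower at an unadjusted p under 0.05. The 44 ribosome biogenesis factors had a median of 0.12, with 33 higher and 0 called by edgeR (5 higher and 0 lower at an unadjusted p under 0.05), for example nucleolin (Ncl) at 0.21 ± 0.11 (edgeR adjusted p = 0.271). The 29 initiation factors had a median of 0.11 and the 8 elongation factors 0.14, again with 0 called by edgeR. At an unadjusted p under 0.05, 8 initiation factors were higher and 1 lower, and 1 elongation factor was higher and 0 lower. Eef1a1, the main carrier of aminoacyl-tRNA, was at 0.10 ± 0.08 (edgeR adjusted p = 0.483).

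Of the 19 regulators of TOP mRNAs and mTORC1, 13 were higher with T1D in WT, with a median of 0.04. Eif4ebp1, the translation repressor that mTORC1 inactivates, rose (0.54 ± 0.14, edgeR adjusted p = 0.049), and Larp1, which binds the TOP tract, was at -0.03 ± 0.06 (edgeR adjusted p = 0.832). With T1D in WT no gene, Eif4ebp1 included, was called without A3905 and A3906 or with the erythroid covariate. The same held without A3767 or without A3907 of WT Control. In T1D in KO none of these lists held a called gene, and their medians lay between 0.01 and 0.08. The RNA level does not measure how much of these mRNAs was translated.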

How the data were processed

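RNA-seq of marrow-depleted bone from 23 mice was analysed. The authors deposited expected counts per gene (RSEM estimates, already rounded to whole numbers) and TPM, with reads aligned by HISAT and Bowtie2 to GRCm38.p6 (mm10) per the labels. A gene was tested where 5 or more libraries held 10 or more counts. Group means were fitted with edgeR 4.0.16 (quasi-likelihood, TMM) on all 14364 genes, and a gene was called at a Benjamini-Hochberg adjusted p under 0.05. DESeq2 1.42.0 and limma 3.58.1 (pseudocounts 1 and 0.1 on TPM) served as alternatives. Log2 CPM used a prior of 0.5. Correlations used 100000 permutations.

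Named genes were those called, the 5 highest and 5 lowest changes with T1D in WT (mean of at least 1 CPM), the 2 highest and 2 lowest elsewhere, the P stalk, Rpsa, paralogs with their partners, the 3 highest and lowest levels, and Rps6, Rps14, Rps19, Rps26, Rpl5 and Rpl11. Some named genes are not reported here. The members and lists were chosen with earlier results of these data known. On simulated data (200 genes, log2 change of 1), 82.5% to 85.0% were called for T1D in WT over 14364 genes. The largest change of the 81 genes with T1D in WT was 0.49, so the simulation gives no rate for changes of their size. The 55 pairs of mice within groups differed beyond sampling noise (chi-square per gene 10.9 to 187), so each mouse counted as 1 replicate. Libraries are separate mice. Counting intervals would cover counting error only, and depth per library is given with the results.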

Additional observations from a re-analysis of the deposited data

Results flagged for a closer look

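A test for a sample far from its group (Dixon's gap ratio at the 95% level, by which chance flags about 1 in 20 groups) was run on 140 groups of named genes and summary levels, and 5 were flagged. Rpl3l was at 28.1 CPM in A3903 of WT Control, against 5.05 to 11.1 CPM in the other 4 mice, and at 28.2 CPM in A3679 of KO Control, against 2.95 to 9.37 CPM in the other 5. Both mice also had the highest muscle scores, 9.14 and 9.001. Rplp2 was at 281 CPM in A3675 of KO T1D, against 191 to 216 CPM in the other 5. Rps6 was at 23.3 CPM in A3766 of KO Control, against 17.05 to 19.28 CPM. Rpl12 was at 364 CPM in A3904 of WT Control, against 411 to 416 CPM.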

How the results depend on the processing

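No paired analysis was possible because the replicate numbers are mouse numbers and no number occurs in 2 groups. With T1D in WT, 5 of the ribosomal protein genes were called, among 334 of all genes. The A36 to A39 mice alone gave 48 among 2205 of all genes, DESeq2 35 among 1002, DESeq2 size factors 4 among 317, scaling without hemoglobin genes 3 among 311, library totals only 2 among 266, no filter 2 among 88, and limma 1 (lower) among 5154 at the TPM pseudocount of 1 and 5173 at 0.1. Rescaled TPM without hemoglobin (added after the data were seen) gave 0 among 86, and the erythroid covariate or leaving out A3905 and A3906 gave 0 among 0. Leaving out 1 mouse gave 0 to 35. The median moved to 0.088 with the covariate and to -0.021 on TPM at either pseudocount. For KO in T1D, 6 genes were called (lower) in the A36 to A39 mice, against 10.7% of all genes. The only WT T1D mice of that fit were A3905, A3906 and A3909. On TPM at either pseudocount 1 gene was called (higher), against 8.12% and 8.25% of all genes. The median for KO in T1D moved to 0.0087 with the covariate and to 0.066 on TPM at either pseudocount. The interaction median moved to -0.090 with the covariate and to -0.020 on TPM at either pseudocount. The share difference in WT moved from 0.54 to -0.031 percentage points of TPM and 0.95 of counts outside hemoglobin. The causes were not tested. Counts of called genes for T1D in KO and KO in Control were 0 under every alternative.

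Single named genes gave 1598 values under alternatives, of which 1397 kept direction and call, 100 lost a call, 56 gained one and 45 reversed. With T1D in WT, on log2(TPM + 1) and log2(TPM + 0.1), these were Rpl11 (-0.041 and -0.041), Rpl22 (-0.093 and -0.095), Rpl3 (-0.12 and -0.12), Rpl5 (-0.072 and -0.072), Rpl7 (-0.11 and -0.11), Rpl7l1 (-0.26 and -0.27), Rplp0 (-0.047 and -0.047), Rplp1 (-0.061 and -0.062), Rps27l (-0.18 and -0.18), Rps6 (-0.066 and -0.071), Rps9 (-0.18 and -0.18) and Rpsa (-0.021 and -0.021). With the covariate, Rpl22 (-0.089), Rpl3 (-0.054), Rps9 (-0.092) and Rpl39l (0.14) reversed, and Rpl39l also in KO in T1D (-0.15) and the interaction (-0.045). Rpl39l in KO in T1D was -0.036 without A3905 and A3906. Rplp2 was 0.014 and Rpl3l -0.034 in the A36 to A39 mice. With library totals Rpl3l was -0.0055 and Rpl7l1 -0.045, and Rpl7l1 was -0.039 on rescaled TPM. Leaving out 1 mouse moved Rpl3l between -0.12 and 0.72 with T1D in WT, between -0.95 and 0.30 with T1D in KO, between -1.09 and 0.34 for KO in Control and between -1.20 and 0.23 in the interaction, and Rpl7l1 between -0.015 and 0.086 with T1D in WT.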
